A study of Mus musculus with 6 samples.

Results

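Matrix metalloproteinases (MMPs) are zinc-dependent proteases that cut collagens and other proteins of the extracellular matrix, and the tissue inhibitors of metalloproteinases (TIMPs) bind their active site and block it. The genes described here are 7 MMP genes (Mmp13, Mmp2, Mmp3, Mmp11, Mmp14, Mmp19 and Mmp23) and 3 TIMP genes (Timp1, Timp2 and Timp3). They are 10 of the 23358 gene rows of the deposited table and were taken by their symbol. The set was chosen by values measured here: the difference in counts between NU7441 and DMSO was known when the genes were proposed. Their values under that contrast are therefore given as a description. Where the test across all genes called one of them, this is stated but supports nothing.

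RNA was sequenced from MC3T3-E1 cells, an established pre-osteoblast line that derives from C57BL/6 mouse calvaria. All cultures were grown to confluency in αMEM with 10% fetal bovine serum. One group then received 1 µM NU7441, which blocks DNA-dependent protein kinase, for 16 h, and the other the solvent DMSO for the same time. There were 3 samples in each group. According to the design text, RNA of replicate cultures from separate experiments was pooled, and what a sample number stands for is left unsaid. Errors and p-values thus measure only how far these samples lie apart, which may be technical. The line is a single cell line, and whether protein or protease activity followed the RNA was not measured.

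Osteoblasts make and remodel a matrix rich in type I collagen. Mmp13 is the main interstitial collagenase of rodent bone cells, and its promoter is a textbook target of the factors RUNX2 and AP-1. MMPs are made as inactive proenzymes: the membrane-anchored protease encoded by Mmp14 activates the gelatinase encoded by Mmp2, in a complex that needs the protein of Timp2, which at higher amounts inhibits the same reaction.

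The DNA before the starts of these genes is shown because Mmp13 and Mmp3, both in 1 gene cluster, had like motifs but very different counts, and because Timp2 was the most abundant of the 10 RNAs per length. Promoter windows of RefSeq (build GRCm38.p6, the assembly that mm10 names) were matched by symbol for 8 of the 10 genes, all but Mmp2 and Mmp19. The 250 bases before the annotated start are given 5′ to 3′ on the gene's strand, at chr9:7272264-7272513 (plus strand) for Mmp13, chr9:7445572-7445821 (plus strand) for Mmp3 and chr11:118355412-118355661 (minus strand) for Timp2. Capitals mark the letters of 3 motifs (AP-1, RUNX and TATA box) on either strand, and no 2 matches overlap in these windows. For AP-1 the letters searched were TGANTCA. For RUNX they were TGTGGT, whose match in Mmp13 lies on the opposite strand. For the TATA box they were TATAAA.
Mmp13: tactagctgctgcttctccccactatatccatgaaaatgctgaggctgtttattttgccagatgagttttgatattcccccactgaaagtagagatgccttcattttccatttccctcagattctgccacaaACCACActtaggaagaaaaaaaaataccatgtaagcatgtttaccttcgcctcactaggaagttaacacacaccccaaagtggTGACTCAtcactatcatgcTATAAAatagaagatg
Mmp3: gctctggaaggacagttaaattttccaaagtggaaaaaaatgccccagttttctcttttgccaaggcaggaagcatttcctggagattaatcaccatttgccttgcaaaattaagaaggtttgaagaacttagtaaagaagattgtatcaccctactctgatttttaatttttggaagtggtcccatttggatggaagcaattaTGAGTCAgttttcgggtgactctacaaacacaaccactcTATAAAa
Timp2: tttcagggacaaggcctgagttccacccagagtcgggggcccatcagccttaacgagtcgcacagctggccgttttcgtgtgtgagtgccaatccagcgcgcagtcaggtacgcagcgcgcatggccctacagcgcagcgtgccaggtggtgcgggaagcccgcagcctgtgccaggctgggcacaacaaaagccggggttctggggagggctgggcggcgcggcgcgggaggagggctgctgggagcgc

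In the Mmp13 window the AP-1 letters lay 29 to 35 bases before the start, the RUNX letters 113 to 118 bases before it, and the TATA box 11 to 16 bases before it. The Mmp3 window held AP-1 letters 40 to 46 bases before the start and TATA letters 2 to 7 bases before it, but no RUNX match. These distances rest on the annotated starts, whose accuracy was not tested. No other matched member had AP-1 or TATA letters in its window, and RUNX letters were found also in Mmp14 and in 1 of the 2 windows of Mmp23. Only TGTGGT was searched for RUNX. The Mmp11 window holds the variant TGCGGT, as does the Mmp23 window with RUNX letters. Of all 32851 promoter windows of this length, 6.75% held the AP-1 letters, 14.0% the RUNX letters and 12.4% the TATA letters. Mmp11, Mmp14, Timp1, Timp2 and Timp3 held at least 1 GC box (GGGCGG on either strand, left in lower case in the Timp2 window above), as did 32.7% of all windows. The share of G and C was 40.4% for Mmp13 and 37.6% for Mmp3, against 54.4% to 68.0% in the windows of the other members. A match of letters is no evidence of binding.

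The total lay between 47312968 and 71292628 counts per sample. Every deposited count was even, so that a read pair appears to count as 2. Of 13784 genes tested across the whole table by quasi-likelihood in edgeR, 4231 (30.7%) differed between NU7441 and DMSO (Benjamini-Hochberg adjusted p below 0.05). Higher genes made up 14.1% of those tested, and lower genes 16.6%. Of the calls, 45.9% were higher with the scaling used (TMM), 56.5% with upper-quartile scaling and 37.7% with library size only. The median log2 fold change of all genes was 0.005 with TMM, 0.031 with upper-quartile scaling and -0.014 with library size only.

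Per kilobase of gene length, in the deposited RPKM (counts scaled by gene length and library total), the 10 RNAs in DMSO fell into tiers. Timp2 stood highest at 284 ± 9.27 RPKM (SD, n = 3), followed by Mmp2 at 225 ± 6.96. Timp1 (102 ± 3.74), Mmp14 (97.4 ± 2.15) and Timp3 (93.1 ± 1.76) formed the second tier. Within it, the samples of Timp1 overlapped those of Mmp14, and the samples of Mmp14 those of Timp3, so that neighbours in this order did not differ beyond their spread. Next came Mmp11 (10.1 ± 0.613), Mmp19 (8.11 ± 0.147) and Mmp13 (7.52 ± 0.236), whose samples did not overlap. Mmp23 stood at 0.284 ± 0.0326 RPKM, and Mmp3 at 0.015 RPKM in 1 sample and 0 in the others. The collagenase gene Mmp13 was thus above most of the detected transcriptome, with 68.1% of 17829 detected genes below it in DMSO. Mmp2 and Timp2 were in its top percent, with 99.2% and 99.3% of those genes below them. In NU7441 the mean RPKM of Mmp13, at 14.6 ± 0.315, passed those of Mmp11 (11.5 ± 0.999) and Mmp19 (7.59 ± 0.176), and the order of the other genes was the same.

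**Figure D1:**
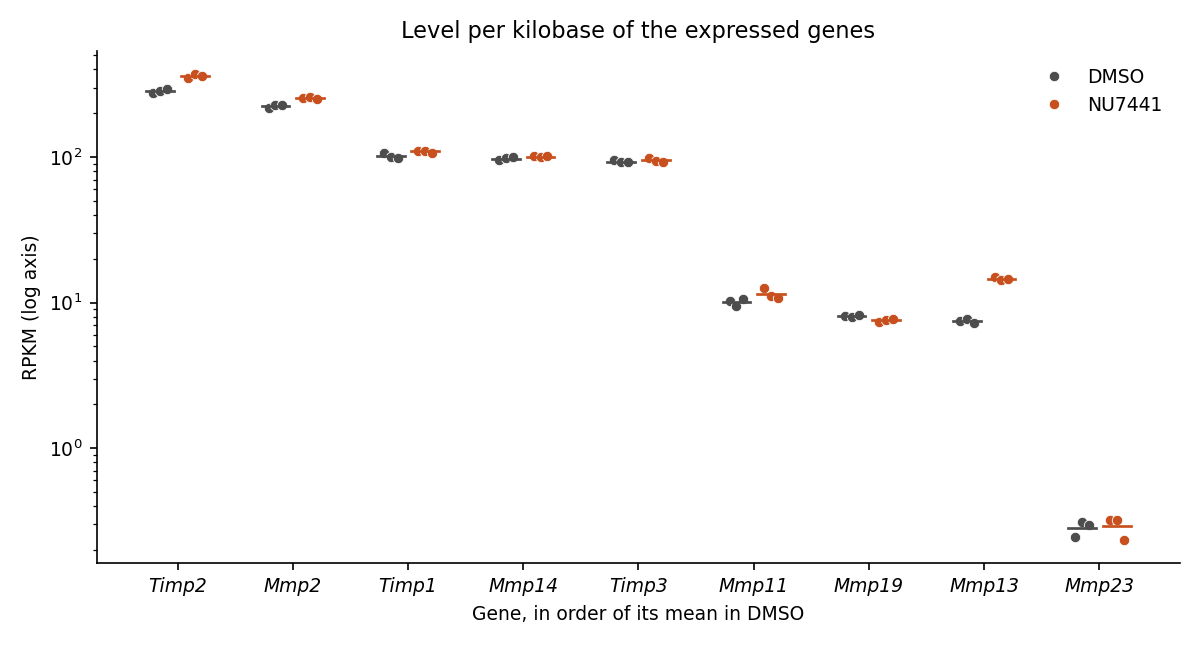
Deposited RPKM (log axis) of 9 genes in each sample, ordered by the mean in DMSO; points are samples and lines group means (n = 3). Mmp3, at 0 in most samples, is left out. Timp2 and Mmp2 lie above 200 RPKM in every sample, and Mmp13 moves from 7.52 in DMSO to 14.6 in NU7441.

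Between the groups, Mmp13 differed most among the 10 genes, and the inhibitor Timp2 came second. Of the 9 genes that passed the filter on low counts, 5 were among the genes called higher in NU7441 (Mmp13, Timp2, Mmp11, Mmp2 and Timp1), where 14.1% of all tested genes were, and 0 were called lower by edgeR, where 16.6% were. At an unadjusted p below 0.05 the numbers were 7 higher and 0 lower, and with DESeq2 also 7 and 0, the additional genes being Mmp14 and Timp3. The median log2 fold change of the 9 was 0.14, beside 0.01 over all genes tested. The samples of the groups did not overlap for 8 of the 9 genes, 7 higher and 1 lower, where this held for 42.8% of all tested genes (20.6% higher and 22.2% lower). As the genes were proposed with this contrast known, nothing is read from these counts. Whether RNA levels moved within cells or between cells of different kinds in a culture cannot be told apart in bulk samples.

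Mmp13 (mm10 chromosome 9, 7272514 to 7283333, plus strand) encodes the collagenase that cleaves fibrillar collagen. It had 26.4, 27.7 and 25.6 CPM (counts scaled to a common library size) in DMSO and 53.1, 52.4 and 52.8 CPM in NU7441. Every NU7441 sample thus lay at about the same level, far above every DMSO sample, although the deposited counts behind them (1470, 1314 and 1840 against 2782, 2852 and 2756) differed with depth. The log2 fold change was 0.99 ± 0.04 (SE), a ratio of 1.99, and its 95% interval ran from 0.91 to 1.07. Of all tested genes 1.86% had a larger absolute change, and Mmp13 was in place 52 among the rises. Leaving out each sample in turn kept the log2 fold change of Mmp13 between 0.96 and 1.02. Its spread between samples was 3.88% of the mean in DMSO and 0.674% in NU7441 (coefficient of variation).

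**Figure D2:**
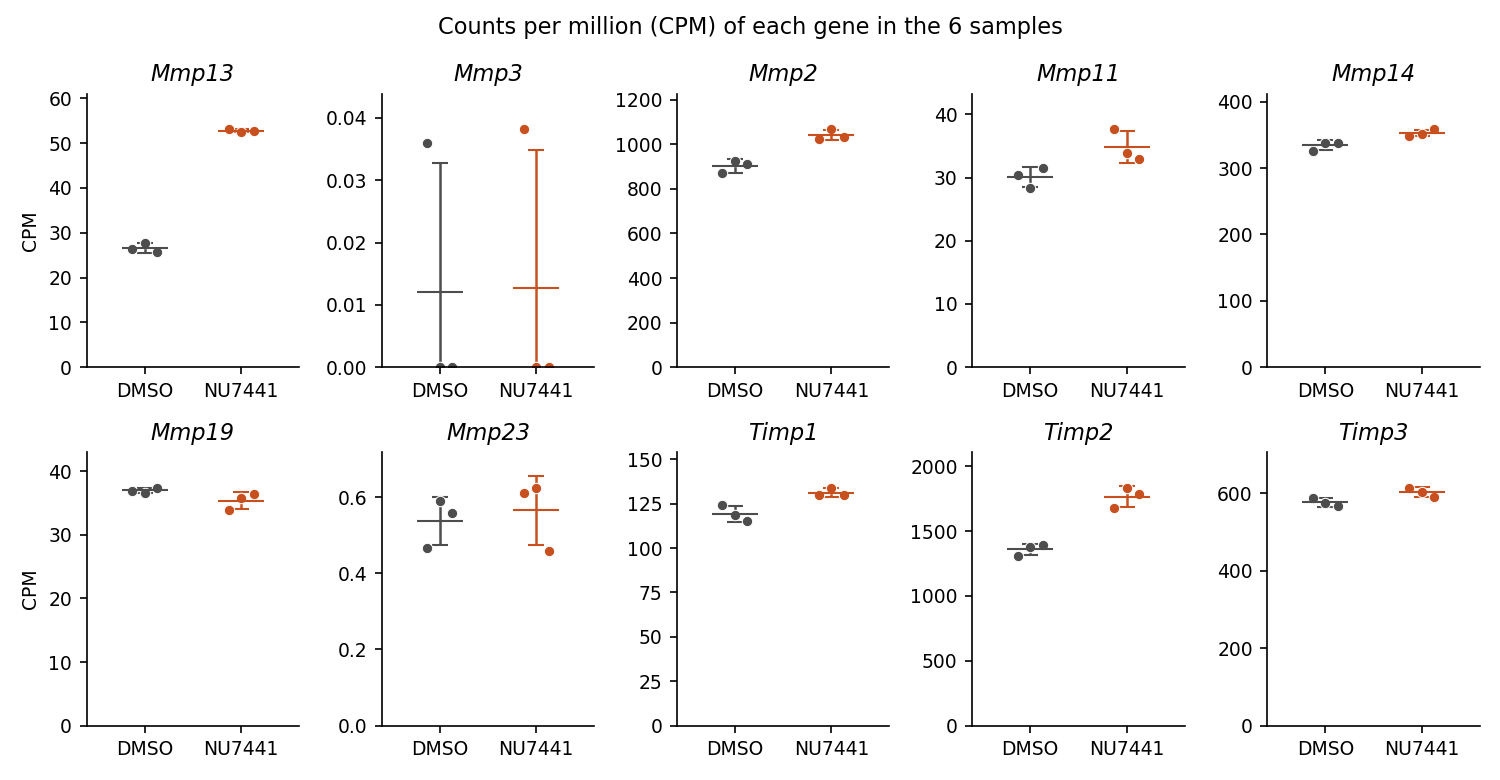
CPM of each of the 10 genes by group, on axes that start at 0; points are samples, horizontal marks are means and bars are SD (n = 3). Mmp13 stands at 26.6 CPM in DMSO and 52.8 in NU7441, Timp2 at 1360 and 1765, and the Mmp3 axis ends near 0.04 CPM because 1 sample of each group held 2 counts.

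The stromelysin genes differed from each other. Mmp3 (chromosome 9, 7445822 to 7455974), which encodes stromelysin-1, a protease that cuts proteoglycans and can activate other proenzymes, had 2 counts in DMSO replicate 1 and in NU7441 replicate 1 and 0 in the other 4 samples. A count of 0 allows up to 3 read pairs, or 6 deposited counts if a pair counts as 2, so the gene was at the limit of detection in both groups and no ratio is given. Mmp11 (chromosome 10, 75923224 to 75932463, minus strand) encodes stromelysin-3, a protease that furin activates inside the cell. Its samples had 30.4, 28.3 and 31.5 CPM under DMSO and 37.7, 34.0 and 32.9 CPM under NU7441. The groups did not overlap, but NU7441 replicate 1 lay well above the other 2. The log2 fold change of Mmp11 was 0.21 ± 0.05, and 0.15 without NU7441 replicate 1.

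The 3 genes of the proMMP-2 activation complex, Mmp2, Mmp14 and Timp2, differed between the groups by unequal amounts. Mmp2 (chromosome 8, 92827328 to 92853420, plus strand), the gelatinase that digests denatured collagen and basement membrane collagen, had 870, 927 and 912 CPM in DMSO and 1026, 1068 and 1035 CPM in NU7441. All NU7441 samples of Mmp2 lay above all DMSO samples, by a log2 fold change of 0.21 ± 0.03 or 15.5%. Mmp14 (chromosome 14, 54431604 to 54441258, plus strand), its membrane-anchored activator and a collagenase itself, had 326, 339 and 339 CPM in DMSO and 349, 352 and 359 in NU7441. The groups of Mmp14 were apart by a narrow margin, with a log2 fold change of 0.08 ± 0.03 (95% interval 0.01 to 0.14).

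Timp2 (chromosome 11, 118301061 to 118355411, minus strand), the inhibitor that takes part in that complex, moved more than both proteases. It had 1310, 1381 and 1390 CPM in DMSO and 1677, 1835 and 1785 CPM in NU7441, so that the lowest NU7441 sample lay well above the highest DMSO sample. The log2 fold change of Timp2 was 0.38 ± 0.03 (95% interval 0.31 to 0.44), or 29.8% higher. In absolute terms this was the largest step of the 10 genes, from 284 to 361 RPKM. Across all samples left out in turn, the log2 fold change of Timp2 stayed between 0.35 and 0.41.

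Timp1 (chromosome X, 20870166 to 20874737, plus strand) encodes a secreted inhibitor of most soluble MMPs that blocks the Mmp14 product poorly. It had 124, 118 and 115 CPM in DMSO and 130, 134 and 130 CPM in NU7441. DMSO replicate 1 lay nearest to the NU7441 samples but below them, and the log2 fold change of Timp1 was 0.14 ± 0.03. Timp3 (chromosome 10, 86300412 to 86349505, plus strand), whose product is bound in the matrix and also inhibits ADAM proteases, had 588, 574 and 567 CPM in DMSO and 614, 604 and 589 CPM in NU7441. The highest DMSO sample and the lowest NU7441 sample of Timp3 nearly met. Its log2 fold change, 0.06 ± 0.03 (95% interval 0.01 to 0.12), was the smallest of the 3 inhibitors.

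Mmp19 and Mmp23 were not called. Mmp19 (chromosome 10, 128790910 to 128800824, plus strand), which encodes a protease of basement membrane proteins, had 36.9, 36.6 and 37.4 CPM in DMSO and 33.9, 35.8 and 36.5 in NU7441. Its highest NU7441 sample fell just short of its lowest DMSO sample, and the log2 fold change was -0.06 ± 0.04 (95% interval -0.14 to 0.02). With a sample left out, the value of Mmp19 ran from -0.0860 to -0.0356, the latter without NU7441 replicate 1. Mmp23 (chromosome 4, 155650655 to 155653384, minus strand) encodes a membrane-bound MMP. It had 26, 28 and 40 counts in DMSO and 32, 34 and 24 in NU7441. The groups of Mmp23 overlapped at this depth, and the interval of its log2 fold change ran from -0.53 to 0.67.

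**Figure D3:**
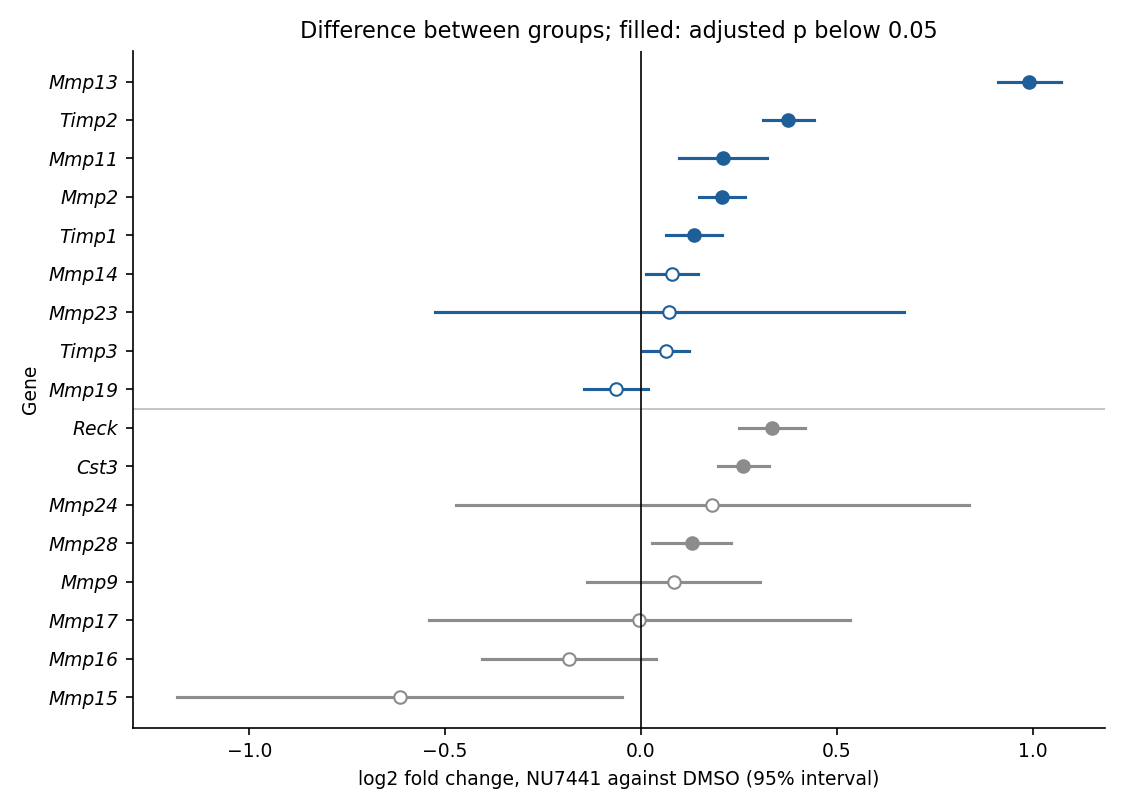
Log2 fold change of NU7441 against DMSO with its 95% interval; the upper block holds the 9 tested members and the lower block the other tested MMP genes with the inhibitor genes Reck and Cst3. Filled points passed an adjusted p of 0.05 in the fit across all genes. Mmp13 lies at 0.99, Timp2 at 0.38 and Reck at 0.33.

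Some of these genes share positions with other genes, and no source used here gives the strand setting of the counting. Reads on exon bases that such a pair shares cannot be told apart if strand was ignored. Timp1 lies inside Syn1, on the other strand and with 0 shared exon bases in GENCODE M21. Syn1 held 228 to 448 counts per sample, and Timp1 5624 to 8290. The log2 fold change of Syn1 was 0.32 ± 0.11 (adjusted p = 0.037 by edgeR), a call lost with library size only and on leaving out DMSO replicate 2 or NU7441 replicate 1 or 3. Timp3 lies inside Syn3, with 1733 shared exon bases beside a listed length of 4681 bases for Timp3. Syn3 held 104 to 184 counts where Timp3 held at least 27228. Mmp19 shares 789 exon bases with Tmem198b on the other strand. The 728 to 1172 counts of Tmem198b are not small beside the 1738 to 2686 of Mmp19. No source used here says whether reads on shared bases were counted or left out, so the values of Timp3 and Mmp19 are both uncertain. Timp2 overlaps BC100451, which held 236 to 344 counts against at least 65540 for Timp2. A further 9 predicted genes whose listed spans cover Timp1 had 0 counts.

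Mmp13 was the single clearly expressed gene of its cluster. The table lists 10 MMP genes in a row on chromosome 9 from 7272514 to 7699416, in the order Mmp13, Mmp12, Mmp1b, Mmp3, Mmp1a, Mmp10, Mmp8, Mmp27, Mmp20 and Mmp7. Of all counts in the 10 genes, 99.5% belonged to Mmp13. Mmp8, a collagenase best known from neutrophils, followed with 6, 8 and 4 counts in DMSO and 8, 16 and 6 in NU7441, and was removed by the low-count filter. Mmp1b, Mmp10, Mmp20 and Mmp7 had 0 counts in every sample, and Mmp12, Mmp3, Mmp1a and Mmp27 at most 4 in any sample. Genes on either side of the cluster were expressed, with 1554 to 2442 counts for Dcun1d5 on the Mmp13 side and 4026 to 5938 for Tmem123 on the other. Among the windows before these starts, AP-1 letters were found also in Mmp1a, in Mmp10 and in 1 of 2 windows of Mmp12, and TATA letters in Mmp1a and Mmp10. The RUNX letters searched, TGTGGT, were found in Mmp13 only among the windows examined for Mmp13, Mmp12, Mmp3, Mmp1a, Mmp10 and Mmp8. The variant TGCGGT was not searched, and the Mmp8 window holds it.

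**Figure D4:**
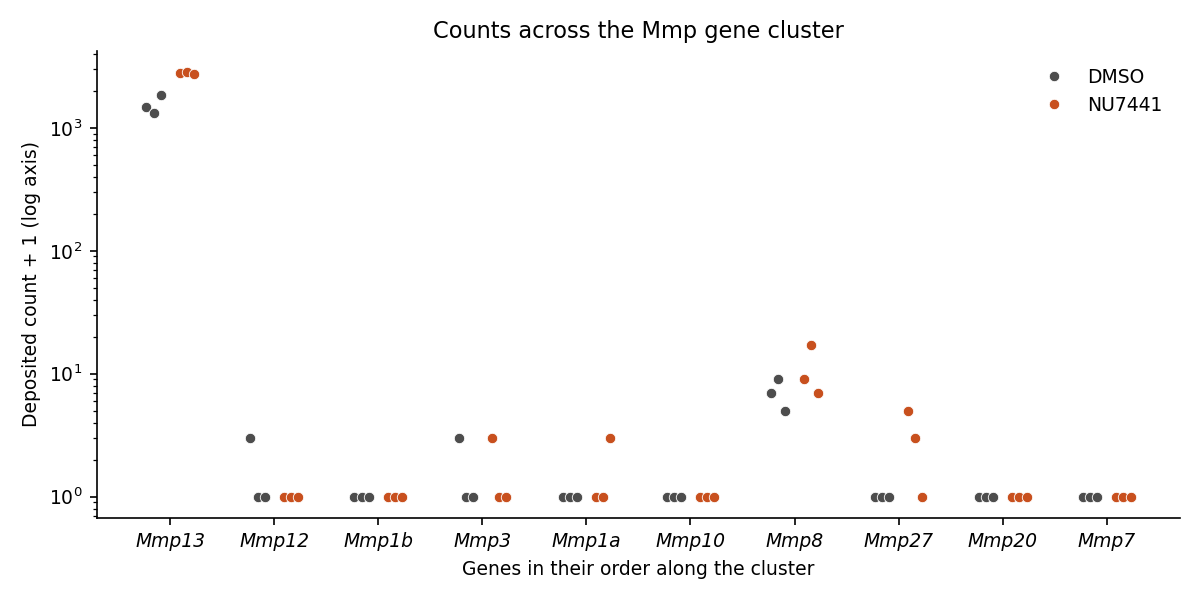
Deposited counts plus 1 (log axis) of the 10 cluster genes in their order along the chromosome; points are samples, 3 per group. Mmp13 holds 1314 to 2852 counts, and no other gene exceeds 16.

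The make-up of the family pools followed these shifts. Of the summed RPKM of all 23 MMP genes in the table, Mmp2 made up 62.8% ± 0.453 in DMSO and 63.7% ± 0.57 in NU7441 (SD, n = 3), and the groups were apart by a narrow margin. The share of Mmp14 went from 27.2% ± 0.169 to 25.3% ± 0.447, that of Mmp19 from 2.27% ± 0.0655 to 1.90% ± 0.0608, and that of Mmp13 from 2.10% ± 0.0825 to 3.67% ± 0.0705. The NU7441 samples did not overlap the DMSO samples for these 3 shares. Relative to Mmp2, Mmp13 went from 3.35% ± 0.137 to 5.76% ± 0.159. Of the summed RPKM of the 4 TIMP genes, Timp2 made up 57.7%, 59.9% and 60.5% in DMSO and 62.6%, 64.4% and 64.5% in NU7441, while the shares of Timp1 and Timp3 were smaller in every NU7441 sample. The summed TIMP level was 1.34 ± 0.0243 times the summed MMP level in DMSO and 1.42 ± 0.026 times in NU7441, and the lowest NU7441 sample (1.39) lay just above the highest DMSO sample (1.37). These are ratios of RNA levels and say nothing of proteins.

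**Figure D5:**
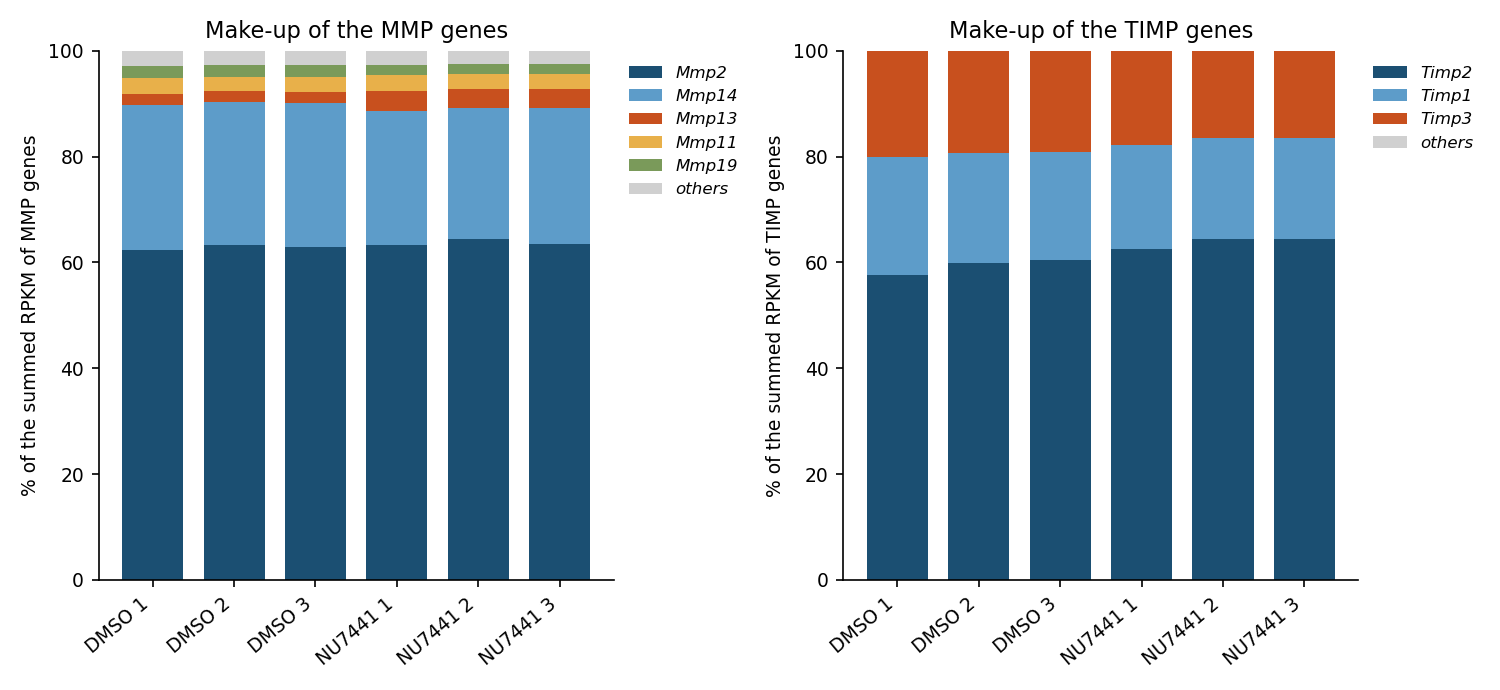
Share of the summed RPKM of MMP genes (left) and TIMP genes (right) held by each gene, one bar per sample. Mmp2 and Mmp14 together fill most of every MMP bar, and the Timp2 part runs from 57.7% in DMSO replicate 1 to 64.5% in NU7441 replicate 3.

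The remaining MMP genes were low and mostly did not pass the test. Of 16 listed, 6 passed the low-count filter. At an unadjusted p below 0.05, 1 was higher and 1 lower, and DESeq2 called 0 and 0. The median log2 fold change was 0.04, beside 0.01 over all genes. Where edgeR called 14.1% of all tested genes higher and 16.6% lower, it called 1 of the 6 higher and 0 lower. The call was Mmp28, or epilysin, at 18.5 ± 0.258 CPM under DMSO against 20.2 ± 0.211 under NU7441, with an adjusted p of 0.049 by edgeR. It was lost without any 1 of the 6 samples (adjusted p from 0.0695 to 0.135). Mmp9, the gelatinase of osteoclasts and other myeloid cells, had 424, 304 and 440 counts in DMSO and 404, 382 and 344 in NU7441, and its log2 fold change of 0.08 ± 0.10 had a 95% interval from -0.14 to 0.30. That of Mmp9 ran from 0.0144 without DMSO replicate 3 to 0.184 without DMSO replicate 1. Mmp15, at 0.825 ± 0.0847 and 0.54 ± 0.107 CPM, lay lower by a log2 fold change of -0.62 ± 0.27 and did not pass (adjusted p = 0.097 by edgeR).

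Of the other inhibitors of MMPs, Reck rose. Reck, a membrane-anchored inhibitor of Mmp2, Mmp9 and Mmp14 proteins, had 2176, 2038 and 2898 counts in DMSO and 2738, 2820 and 2618 in NU7441. On scaled libraries this was 40.8 ± 1.93 against 51.4 ± 1.12 CPM, a log2 fold change of 0.33 ± 0.04 with an adjusted p of 1.5e-05 by edgeR. Of the 6 genes listed, 2 were tested and both rose, where 14.1% of all tested genes did. The other gene of that list was Cst3, which encodes cystatin C, an inhibitor of cysteine cathepsins and not of MMPs (0.26 ± 0.03, edgeR adjusted p = 1.3e-05). Timp4 had 4 counts in NU7441 replicate 1 and 0 in the other samples.

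The related ADAM and ADAMTS proteases went both ways. Of 22 tested, 7 rose and 3 fell, where 14.1% of all tested genes rose and 16.6% fell. The median log2 fold change of the 22 was 0.04, beside 0.01 over all genes. Adamts6 moved most among those named, from 27.8 ± 1.17 to 40.6 ± 1.49 CPM (0.55 ± 0.04, edgeR adjusted p = 1.7e-07). The aggrecanase genes Adamts4 (0.21 ± 0.04, edgeR adjusted p = 0.002) and Adamts5 (0.17 ± 0.04, adjusted p = 0.0058), chosen after their values were seen, rose by less, as did Adam23 (0.19 ± 0.03) and Adam15 (0.17 ± 0.03). Adamts14, a procollagen N-propeptidase, fell from 16.9 ± 0.642 to 12.3 ± 0.583 CPM (-0.46 ± 0.06; by edgeR, adjusted p = 4.1e-05). Adam19 (-0.26 ± 0.05) and Adamts1 (-0.19 ± 0.04) fell too. Among 8 tested genes of other extracellular proteases 3 rose and 0 fell by edgeR, where 14.1% of all tested genes rose and 16.6% fell. The numbers were 4 and 0 at an unadjusted p below 0.05, and 3 and 0 with DESeq2. The genes that edgeR called were Pappa2, a protease of IGF-binding proteins, the aminopeptidase gene Anpep (0.26 ± 0.03) and the endothelin-converting enzyme gene Ece1 (0.17 ± 0.04). Pappa2 went from 1439 ± 52.2 to 1857 ± 108 CPM (0.37 ± 0.04, edgeR adjusted p = 1.6e-06).

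Plasmin is a general activator of proMMPs. In a list made for plasminogen activation, which also holds Serpinf1, 9 genes were tested. Of these, 3 rose and 2 fell, where 14.1% of all tested genes rose and 16.6% fell. The median log2 fold change of the 9 was -0.02, beside 0.01 over all genes. Plat, the tissue plasminogen activator, rose (0.19 ± 0.04, edgeR adjusted p = 0.0034), as did the inhibitor gene Serpine2 (0.11 ± 0.03) and Serpinf1, which encodes a serpin known for inhibiting blood vessel growth and not for acting on plasminogen (0.12 ± 0.03). S100a10, a plasminogen receptor subunit, fell (-0.14 ± 0.03, edgeR adjusted p = 0.0042). Plau, the urokinase gene, fell by 0.13 ± 0.04 on the log2 scale (adjusted p = 0.028 by edgeR). That left 1 gene lower, and Plau not called, when replicate 2 or 3 of either group was left out (adjusted p from 0.0672 to 0.142), with upper-quartile scaling and with DESeq2. Plasminogen itself (Plg) had 0 counts in every sample.

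Of 15 tested genes for activators, surface partners and clearance receptors of MMPs, 5 rose and 1 fell. Over all tested genes 14.1% rose and 16.6% fell. The median log2 fold change of the 15 was 0.03, beside 0.01 over all genes. Lrp1, the endocytic receptor that clears Mmp13 protein and MMP-TIMP complexes, rose from 1548 ± 81.2 to 1821 ± 102 CPM (0.23 ± 0.04, edgeR adjusted p = 0.00027). Itgav, an integrin subunit that binds MMPs at the surface, rose by 0.13 ± 0.03, and Furin, the convertase of Mmp11 and Mmp14 proproteins, by 0.13 ± 0.04 (chosen after its value was seen; edgeR, adjusted p = 0.011). Without DMSO replicate 1 Furin did not pass (adjusted p = 0.0681). Sparc, a matrix protein, rose by 0.11 ± 0.03, a call lost with a robust estimate of the spread (adjusted p = 0.17). The gene that fell was Ddr2, a collagen receptor that can induce Mmp13, at -0.07 ± 0.03 (adjusted p = 0.049 by edgeR). Ddr2 no longer passed without any 1 of the 6 samples (adjusted p from 0.0809 to 0.154), with RLE or upper-quartile scaling, or with no low-count filter.

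Genes of factors known to act on the Mmp13 promoter moved in both directions. Runx2 had 174 ± 5.95 CPM under DMSO against 176 ± 5.2 under NU7441, with a log2 fold change of 0.01 ± 0.03 (95% interval -0.06 to 0.08), while its partner subunit Cbfb fell (-0.18 ± 0.04, edgeR adjusted p = 0.0012). Of the AP-1 genes, Jun (-0.24 ± 0.04, adjusted p = 0.00017) and Fosl1 (-0.52 ± 0.15, adjusted p = 0.015) fell, and Jund (0.20 ± 0.03), Junb (0.31 ± 0.07), Fosb (0.32 ± 0.10, adjusted p = 0.026) and Fosl2 (0.13 ± 0.03, adjusted p = 0.008) rose. The rises of Fosb and Fosl2 were each lost on leaving out any 1 of 3 samples, DMSO replicate 2 among them (adjusted p from 0.0797 to 0.0855 for Fosb and from 0.0573 to 0.0693 for Fosl2). For Fosb the other 2 were DMSO replicate 3 and NU7441 replicate 2, and for Fosl2 DMSO replicate 1 and NU7441 replicate 3. Fos, at 252, 190 and 244 counts in DMSO and 232, 318 and 270 in NU7441, differed by 0.38 ± 0.13 on the log2 scale (adjusted p = 0.045 by edgeR), although its samples overlapped. Smad3, a mediator of TGF-beta signals, rose from 107 ± 3.85 to 136 ± 3.02 CPM (0.34 ± 0.03, edgeR adjusted p = 1.8e-06). In all, 6 of 27 tested regulators rose and 3 fell, where 14.1% of all tested genes rose and 16.6% fell. The median log2 fold change of the 27 was 0.04, beside 0.01 over all genes. Without DMSO replicate 2, 3 rose. Fosl1 did not pass when DMSO replicate 1 was left out (adjusted p = 0.0709). Fos did not pass when replicate 2 or 3 of either group was left out (adjusted p from 0.0927 to 0.195), nor with library size only.

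Matrix proteins that MMPs cut went both ways as well. Of 16 tested, 8 rose and 4 fell, where 14.1% of all tested genes rose and 16.6% fell. The median log2 fold change of the 16 was 0.03, beside 0.01 over all genes. Bgn, the proteoglycan biglycan, rose by 0.26 ± 0.02, Col4a2, a basement membrane collagen chain, by 0.26 ± 0.03 and Col5a2, a chain of the minor fibrillar collagen V, by 0.20 ± 0.02. Col3a1 (-0.18 ± 0.04), Vcan (-0.25 ± 0.05) and Dcn (-0.23 ± 0.06), a fibrillar collagen and 2 proteoglycans, fell by edgeR, but with a robust estimate of the spread 0 of 16 genes were called lower (adjusted p of these 3 from 0.0869 to 0.138). The main substrate of Mmp13 in bone, type I collagen, is encoded by Col1a1, whose log2 fold change was 0.00 ± 0.02, and by Col1a2, at 0.05 ± 0.02 (adjusted p = 0.024 by edgeR). The groups of Col1a2 overlapped, and it did not pass with DESeq2, library size only or a robust estimate of the spread, nor without DMSO replicate 1 or 2 or NU7441 replicate 2 or 3 (adjusted p from 0.0671 to 0.107). Only 5 rose when DMSO replicate 1 or DMSO replicate 2 was left out, and 4 with DESeq2.

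The profile of Mmp13 over the 6 samples was compared with those of 11868 genes that averaged at least 1 CPM. The highest Pearson r of log2 CPM were those of Ghr (growth hormone receptor), Rpl5 (a ribosomal protein), Mylk (myosin light chain kinase), Pdgfra (a growth factor receptor) and Ctsd (cathepsin D), all rounding to at least 0.998. These 6 points lie in 2 groups with little spread inside them, so the r describes a shared step between the groups. By ranks (Spearman) the correlation was 0.77 for Ghr, Rpl5, Pdgfra and Ctsd and 0.94 for Mylk. The size of the step differed: the log2 fold change was 0.20 ± 0.03 for Ghr and 0.42 ± 0.03 for Pdgfra, against 0.99 for Mmp13.

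The cells carried osteoblast-lineage RNA. All 12 listed osteoblast markers had counts. Their summed level, most of it from Col1a1 and Col1a2, was 47044 to 49488 CPM in DMSO and 48521 to 50004 in NU7441. Single markers moved in both directions. Beside 14.1% higher and 16.6% lower over all tested genes, 4 of the 10 tested markers rose and 2 fell. Those that fell were Ibsp, the bone sialoprotein gene, from 13.1 ± 1.80 to 7.09 ± 1.94 CPM (-0.89 ± 0.15, edgeR adjusted p = 0.0004), and Alpl, the alkaline phosphatase gene, from 39.9 ± 4.68 to 32.7 ± 2.74 CPM (-0.29 ± 0.07, edgeR adjusted p = 0.006). Both calls were lost with a robust estimate of the spread (adjusted p of 0.0589 and 0.095). Spp1, the osteopontin gene, rose (0.25 ± 0.03), as did Dmp1 (0.64 ± 0.20, edgeR adjusted p = 0.022), whose call was lost without DMSO replicate 2, DMSO replicate 3 or NU7441 replicate 2 (adjusted p from 0.0652 to 0.0896). The others were Sparc and Col1a2. The osteocalcin genes Bglap and Bglap2 were near the limit of detection, at 0.124 ± 0.114 and 0.0707 ± 0.0143 CPM in DMSO. The part of these shifts in the values of the MMP genes was not tested. Of the cell types known for Mmp9, Mmp12 or Mmp13, osteoclast markers were at or near 0 except for Ctsk and Mmp9: Dcstamp had 0 counts, Acp5 and Calcr had counts in 1 sample each, and the sum of 8 markers was 110 to 118 CPM in DMSO and 118 to 123 in NU7441, nearly all from Ctsk. The defining macrophage genes Ptprc and Emr1 (now Adgre1) had 0 counts in every sample. Other macrophage markers were detected in every sample, among them Csf1r at 42 to 84 counts and Cd68 at 48 to 112. Of the 8 macrophage markers listed, 3 passed the low-count filter, and edgeR called 0 higher and 0 lower. The sum of the 8 macrophage markers was 7.58 to 7.75 CPM in DMSO and 6.82 to 7.57 in NU7441. Of 7 chondrocyte markers Acan had 0 counts and Col10a1, the marker of the hypertrophic cells that make Mmp13, had 0.334 ± 0.0268 CPM in DMSO and 0.632 ± 0.287 in NU7441 (adjusted p = 0.066 by edgeR, and 0.0295 without NU7441 replicate 2). Col2a1, the type II collagen gene, went from 8.49 ± 0.203 to 9.94 ± 0.948 CPM (0.23 ± 0.08, edgeR adjusted p = 0.046), a call lost without any 1 of the samples other than NU7441 replicate 3 (adjusted p from 0.089 to 0.173), and with DESeq2 or library size only. Col9a1 went the other way, its counts falling from 4, 2 and 16 with DMSO to 2, 0 and 0 with NU7441, and the low-count filter removed it. For Comp the groups overlapped (0.10 ± 0.18, edgeR adjusted p = 0.72). Among the 4 chondrocyte markers tested, edgeR called 2 higher and 0 lower, beside 14.1% and 16.6% of all tested genes, and DESeq2 called 1 higher. The summed chondrocyte level was 82.3 to 84.1 CPM in DMSO and 89.5 to 93.8 in NU7441, mainly from Sox9 (log2 fold change 0.14 ± 0.03, adjusted p = 0.0058 by edgeR). The part of these markers in the difference of Mmp13 was not tested.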

How the data were processed

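The members and gene lists were chosen with earlier results of these data known. Per the submitters' processing notes, bcl2fastq, TopHat2 version 2.0.6, HTSeq and the build mm10 were used, and their settings are not given in the sources used here. Per the file headers, the table of 23358 genes holds the authors' count and RPKM for every sample, beside a length of each gene. The deposited RPKM are counts per length and per sample total (the gene counts fill 74.2% to 75.7% of that total) and served to set levels of genes side by side. The deposited counts passed filterByExpr (at least 10 counts, 15 in total), TMM scaling and edgeR 4.0.16 in R 4.3.3 (quasi-likelihood test, group as the only term, two-sided, Benjamini-Hochberg adjustment over 13784 genes at 0.05). CPM rest on TMM-scaled totals. Each SE is the log2 fold change over the root of its F statistic. DESeq2 1.42.0 and other scalings were alternatives. Counts for NU7441 against DMSO were simulated for 13682 genes, with the same relative spread for every gene. At each fold 50 genes averaging 100 counts or more were changed, so that fewer genes differed than in the data. Of these, 70% were recovered at 1.25-fold and 98% at 1.5-fold, and 9 of 193 calls were false. Samples of 1 group differed beyond counting noise in every pair. Named were all members, Mmp9, Mmp8, Timp4, Reck, Runx2, Jun and Fos, up to 3 called genes per list and direction with the lowest adjusted p (not all are described), genes overlapping a member, the MMP cluster genes and the 5 genes most like Mmp13. Other names were chosen after their values were seen, among them Adamts4, Adamts5, Furin, Mmp15, Fosb, Fosl2, Col1a1, Col1a2, the marker genes, Dcun1d5 and Tmem123. Of the listed genes 2 appear in the table under older names. No sample was left out of the main test.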

Additional observations from a re-analysis of the deposited data

How the results depend on the processing

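The alternatives were RLE and upper-quartile scaling, library size only, no low-count filter, DESeq2, a robust estimate of the spread, counts divided by 2, a table without Rn45s, each sample left out in turn and a replicate block. Over these 15 fits, 3466 to 5120 genes were called (3466 to 3910 with a sample left out), 5 to 7 members were called higher (5 with any sample left out) and 0 lower, and the order of the members per length in DMSO was the same with CPM per kilobase. These members were chosen with the contrast known, so nothing is read from that. The log2 fold changes of 5 uncalled genes changed sign: with each sample left out, Mmp23 ran from -0.0157 to 0.20, Runx2 from -0.0143 to 0.0369, Syn3 from -0.0513 to 0.188, Col1a1 from -0.0266 to 0.0277 and Tmem198b from -0.0905 to 0.0403. Runx2 was also -0.00600 and Col1a1 -0.0183 with library size only, and Tmem198b 0.0128 with upper-quartile scaling. Of the other MMP genes 0 were higher with library size only, no filter, DESeq2, the robust estimate or counts divided by 2, and 0 to 0 with each sample left out. For plasminogen activation the number lower was 1 with upper-quartile scaling and DESeq2, and 1 to 2 with a sample left out. For activators and receptors it was 0 with RLE, upper-quartile scaling or no filter, and 0 with any sample left out. For regulators of Mmp13 the number higher was 3 to 6 with a sample left out. For substrates the number higher was 4 with DESeq2, 5 with the robust estimate and 5 to 7 with a sample left out, and the number lower was 0 with the robust estimate. With the replicate block the number of regulators higher was 10. Mmp14 and Timp3 were called with upper-quartile scaling, DESeq2 and the replicate block, and Mmp14 also with the robust estimate. Over the 15 fits the log2 fold change ran from 0.060 to 0.105 for Mmp14 and from 0.045 to 0.090 for Timp3, so these 2 calls depend on the processing. The sources used here do not say whether same-numbered samples belong together, and the main test took no account of such pairs. The correlations of their deviations from the group means were 0.13, 0.09 and 0.05, and every sample correlated best with its own number. The fit with the replicate block called 2417 genes higher and 2703 lower, against 1941 and 2290 in the main fit. The cause of these changes was not tested. Mmp3, Mmp8 and Timp4 are limited by depth, with at most 16 counts per sample.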
